A study of Mus musculus with 30 samples.

Results

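The genes described here encode the enzymes of phase II conjugation and antioxidant defence in mouse liver. They were chosen by gene symbol, with earlier results of these data known: glutathione transferases (Gst), UDP-glucuronosyltransferases (Ugt), sulfotransferases (Sult), aldehyde dehydrogenases (Aldh), aldo-keto reductases (Akr), carboxylesterases (Ces), epoxide hydrolases (Ephx), flavin monooxygenases (Fmo), and the quinone, glutathione-synthesis, thioredoxin, peroxiredoxin and haem oxygenase genes (Nqo, Gclc and Gclm, Txnrd, Srxn1, Prdx, Hmox). Of the 8996 genes measured, 94 carried such a symbol: 19 Gst, 12 Ugt, 7 Sult, 14 Aldh, 11 Akr, 12 Ces, 2 Ephx, 3 Fmo and 14 quinone and thiol antioxidant genes. A gene with several probes was represented by the probe with the highest mean over all arrays, which applied to 24 of the 94. The measured members ranged from 5.68 to 15.31 on the log2 intensity scale.

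Liver RNA of 30 mice, 1 mouse per one-colour (Cy3) Agilent array, was compared after 30 days of daily gavage with 500 µl, beside standard chow, in mice 8 weeks old at the start. In the first experiment 3 females and 3 males received a water decoction of chicory root powder of genotype G35 at 10 mg per mouse and day, 3 and 3 the same dose of genotype G12, and 3 and 3 water (control 1). In the second, run in another period, 3 females and 3 males received inulin, the fructan stored in chicory roots, at 6.9 mg per mouse and day, and 3 and 3 water (control 2). The strain was not given in the sources used here, and the labels name no engineered allele. Values are log2 intensities after background correction and quantile normalization. Differences are log2 differences of group means ± the standard error of limma's fit of all 10 groups, and a gene passed when its p, adjusted over all 8996 genes, was under 0.05.

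Phase II enzymes attach glutathione, glucuronic acid or sulfate to reactive or fat-soluble molecules so that transporters can carry them into bile or urine, while carboxylesterases, epoxide hydrolases and aldehyde and carbonyl dehydrogenases and reductases open or detoxify reactive groups beforehand. Many of the antioxidant members are targets of the transcription factor NRF2 (Nfe2l2), which plant electrophiles release from its repressor KEAP1 and which binds antioxidant response elements. In rodent liver, several conjugating enzymes are also known to differ between the sexes under the pulsatile male and the more continuous female pattern of growth hormone, which acts through STAT5.

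Each experiment used 5 slides, 10 in all, and only 3 slides held arrays of both sexes. Array medians ran from 141 to 511 intensity units before normalization, and 30 arrays limit the precision. None of the 5 genes planned for checking sex (Xist and Y-linked genes) was in the table. The check therefore rests on 8 of 9 measured genes known for sex-biased liver expression that passed, 4 higher in females, led by Cyp3a44 (log2 difference 5.71 ± 0.14), and 4 lower, led by Cyp7b1 (-3.07 ± 0.14). The 5 hepatocyte markers measured, of 7 listed, lay between 10.19 and 15.97 on every array. In whole liver, fewer cells of a type and less RNA per cell cannot be told apart. On the array of female G12 replicate 2, a patch of low signal covered 1008 features, 647 genes and 8 members, and the calls that turn on those members are given with and without it. On that array 38 small areas had a low median against arrays of the same sex and experiment. The same search flagged 6 areas on female control 2 replicate 1, and 3, 3 and 1 on male inulin replicates 1, 2 and 3. The areas on these other arrays were not left out, and which members lay in them was not examined.

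Sex accounted for the clearest differences among the members. In females, 35 of the 94 differed from males, 13 higher (8.98% of all genes were higher) and 22 lower (11.5% of all genes were lower, 20.5% differed in either direction). Estrogen sulfotransferase Sult1e1 was 4.18-fold higher in females on this scale, and Gstp1 4.85-fold, Sult2a8 2.95-fold and Ces3b 2.79-fold lower. Most of the Ugt2 glucuronosyltransferases were lower in females. The median log2 difference, females minus males, was -0.08 over the 94 members and -0.02 over all genes. In 5 members the 15 females and the 15 males did not overlap: Sult1e1 lay above in every female (0.233% of all genes did), and Gstp1, Sult2a8, Ces3a and Ces3b lay below (0.233% of all genes did).

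**Figure D1:**
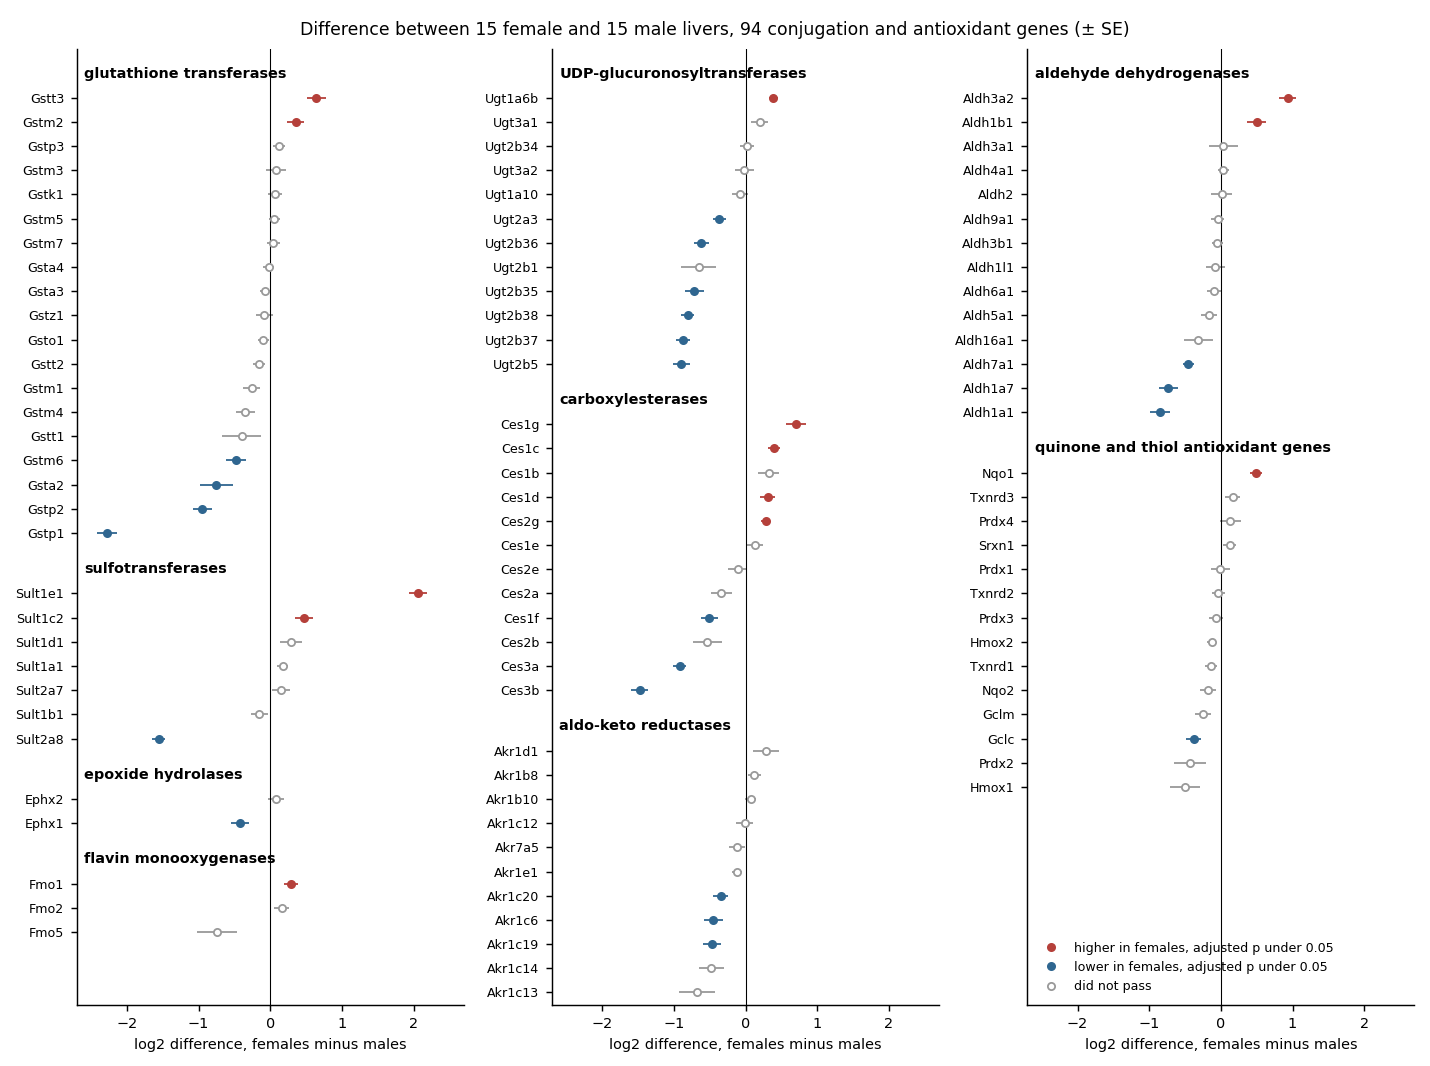
Log2 difference between 15 female and 15 male livers (x axis, females minus males, bars ± SE of the fit) for each of the 94 members, grouped by enzyme family. Filled red points are the 13 members that passed as higher in females, filled blue points the 22 that passed as lower and open points the rest; Sult1e1 at 2.06 and Gstp1 at -2.28 stand at the ends.

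Sulfotransferases moved in both directions. Sult1e1, which sulfates and so inactivates estrogens, had a lowest, median and highest log2 intensity of 7.39, 8.29 and 9.47 in the 15 females, against 5.99, 6.28 and 7.04 in the 15 males. Every female lay above every male, a difference of 2.06 ± 0.12 (adjusted p = 5.49e-12). The male mean, 6.37, lay below the level of 6.91 under which the dimmest 25% of genes had their means, where the added offset of 50 compresses folds, and no detection flags were used here. Its sex difference was 1.47 under G35, 1.70 under G12 and 1.38 in control 1, against 2.93 under inulin and 2.85 in control 2. The female arrays of the inulin experiment (8.75 to 9.47) lay mostly above those of the chicory experiment (7.39 to 8.79), while the male arrays overlapped (5.99 to 6.44 and 6.06 to 7.04). The difference between the experiments, a comparison added after the data were seen, was 1.38 ± 0.25 and did not pass (adjusted p = 0.0672, 0% of genes passed).

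The promoter window of Sult1e1 is shown because this gene had the largest rise in females. It covers 250 bases before to 50 after the RefSeq start (GRCm38.p6), chr5:87591562-87591861 on the minus strand, 5′ to 3′, and has no capitals because neither motif described further on was found in it.
Sult1e1: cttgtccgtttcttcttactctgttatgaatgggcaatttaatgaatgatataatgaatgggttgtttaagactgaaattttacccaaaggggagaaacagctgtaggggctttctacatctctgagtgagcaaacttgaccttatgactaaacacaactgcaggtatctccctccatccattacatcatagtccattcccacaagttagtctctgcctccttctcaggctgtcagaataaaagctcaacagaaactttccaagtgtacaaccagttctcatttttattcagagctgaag

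Sult2a8, which sulfates bile acids in mice, gave 10.98, 11.55 and 12.07 (lowest, median and highest) in females against 12.56, 13.08 and 13.44 in males. The sexes did not overlap, and the difference was -1.56 ± 0.09 (adjusted p = 2.18e-12), between -1.76 and -1.39 within each of the 5 gavages. Of all members, it had the highest share of its variance between sexes, 89.5%. Sult1c2 was higher in females by 0.47 ± 0.13 (adjusted p = 0.0112). The remaining 4 sulfotransferases, Sult1a1, Sult1b1, Sult1d1 and Sult2a7, did not pass, at -0.15 to 0.29.

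**Figure D2:**
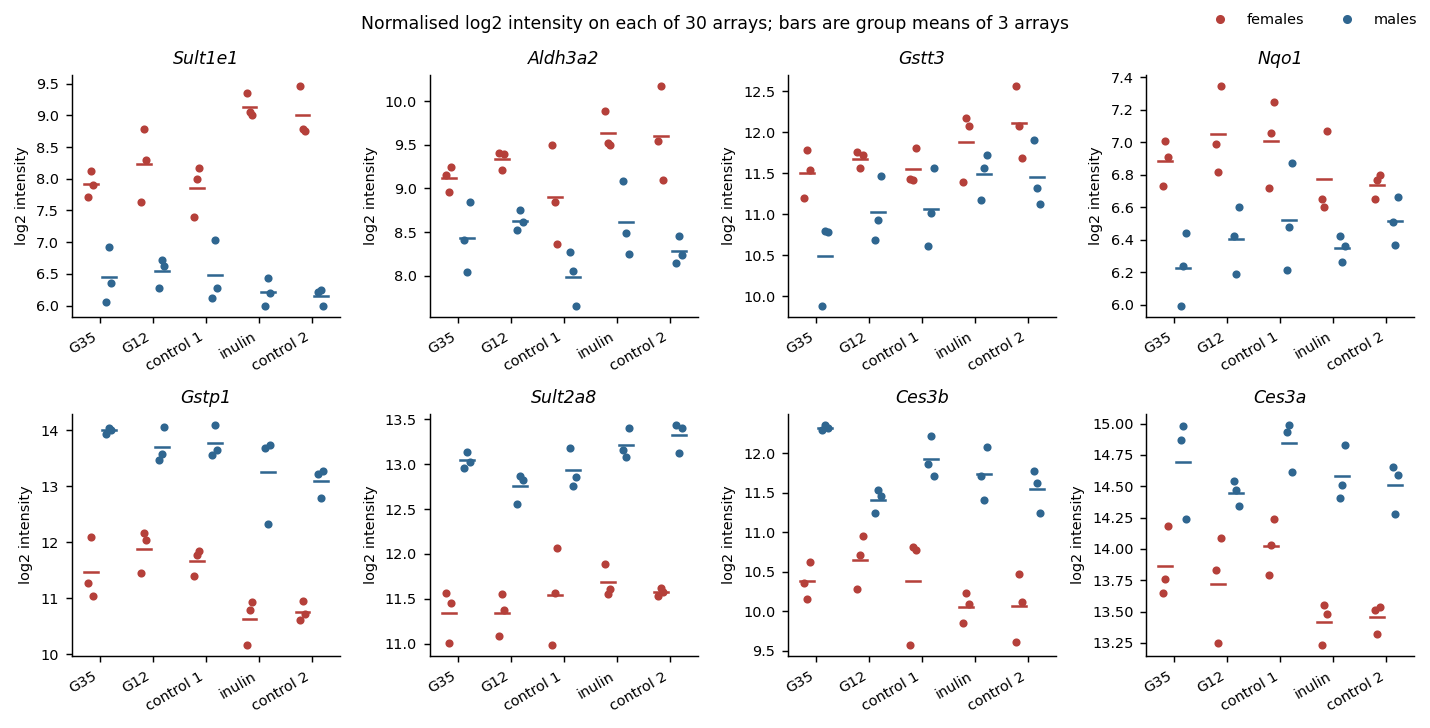
Normalised log2 intensity (y axis) of 8 members on each of the 30 arrays, by gavage (x axis), females in red left of males in blue, with bars at the means of 3 arrays. Sult1e1 lies higher in every female array than in any male array, and Gstp1, Sult2a8, Ces3b and Ces3a lie lower in every female array.

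Glutathione transferases of the pi class showed the largest fall. Gstp1, which conjugates electrophiles to glutathione and is known in mice as a male-predominant liver enzyme, gave 10.16, 11.28 and 12.17 (lowest, median and highest) in females, against 12.33, 13.65 and 14.10 in males. No female reached the lowest male, and the difference was -2.28 ± 0.14 (adjusted p = 5.49e-12), between -2.62 and -1.82 within each gavage. Its second probe gave -2.16 ± 0.14. Gstp2, its close copy, gave 12.52, 13.38 and 14.02 in females against 13.64, 14.30 and 14.95 in males, overlapping at the edges, with a difference of -0.95 ± 0.13. A dimmer probe of Gstp2 gave -2.22 ± 0.14. Gstp3 did not pass, at 0.12. Probe sequences were not used here, so whether probes of these near-identical genes read each other's transcripts was not tested.

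The windows of Gstp1 (chr19:4037863-4038162) and Gstp2 (chr19:4042172-4042471), both on the minus strand of GRCm38.p6, are shown because the genes fell together. Capitals mark the longest run they share, 43 bases, from -224 to -182 relative to the start of Gstp1 and from -237 to -195 relative to that of Gstp2.
Gstp1: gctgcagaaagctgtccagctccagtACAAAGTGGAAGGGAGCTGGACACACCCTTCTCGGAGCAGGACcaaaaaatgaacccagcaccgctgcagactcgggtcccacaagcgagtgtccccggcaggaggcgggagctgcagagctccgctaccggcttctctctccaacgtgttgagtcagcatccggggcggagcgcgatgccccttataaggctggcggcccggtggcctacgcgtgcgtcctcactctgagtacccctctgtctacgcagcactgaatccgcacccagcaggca
Gstp2: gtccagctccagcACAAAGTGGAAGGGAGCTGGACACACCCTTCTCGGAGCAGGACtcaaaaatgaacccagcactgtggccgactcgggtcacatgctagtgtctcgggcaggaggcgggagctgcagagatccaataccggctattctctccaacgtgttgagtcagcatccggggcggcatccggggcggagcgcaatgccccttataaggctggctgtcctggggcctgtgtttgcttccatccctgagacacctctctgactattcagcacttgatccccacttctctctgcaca

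In all, 6 of the 19 glutathione transferases passed, 2 higher and 4 lower in females (20.5% of all genes passed). Gstt3, of the theta class, was higher by 0.64 ± 0.13 (adjusted p = 0.001), with 11.20, 11.72 and 12.57 in females against 9.88, 11.12 and 11.91 in males. The mu class split: Gstm2 was higher by 0.35 ± 0.12 and Gstm6 lower by -0.48 ± 0.14, although both sit in 1 run of 7 Gstm genes on chromosome 3. Both probes of Gstm2 gave 0.35, and the 3 probes of Gstm6 gave -0.57 to -0.32. The Gstm2 call was lost (adjusted p up to 0.0765) when any of 15 single arrays was left out. Gsta2, an alpha class enzyme that is inducible through NRF2, was lower by -0.75 ± 0.23 (adjusted p = 0.0209).

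Among the glucuronosyltransferases, 7 of 12 passed, 6 lower and 1 higher (20.5% of all genes passed). The median difference over the 12 was -0.49. Ugt2b5 gave 11.57, 12.14 and 12.61 in females against 12.07, 12.94 and 13.85 in males, a difference of -0.90 ± 0.12. Ugt2b37 was lower by -0.87 ± 0.10 and Ugt2b38 by -0.81 ± 0.09. Ugt2b35 was lower by -0.71 ± 0.14. Ugt2b36 (-0.62 ± 0.10) and Ugt2a3 (-0.37 ± 0.09), named after their values were seen, complete the set. These enzymes glucuronidate steroids, bile acids and drugs.

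The Ugt2 genes are neighbours. In RefSeq gene order (GRCm38.p6), counting members with at most 5 other protein-coding genes between them, 62 of the 94 members fell into 16 runs. The longest run, on chromosome 5, held 8 Ugt2 genes, of which 6 were lower in females, followed by Sult1b1, Sult1d1 and Sult1e1, of which Sult1e1 was higher. So the run held differences from -0.90 to 2.06. Ugt1a6b, from the other cluster on chromosome 1, was higher in females by 0.39 ± 0.06 with its brighter probe (adjusted p = 0.000118), while its dimmer probe pointed the other way (-0.33 ± 0.15) and did not pass. The exons that Ugt1a genes share leave the reading of single Ugt1a members uncertain.

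Carboxylesterases, which hydrolyse ester drugs and lipids, had 7 of 12 members passing, 4 higher and 3 lower (20.5% of all genes passed). Ces3b gave 9.57, 10.29 and 10.96 in females against 11.24, 11.71 and 12.36 in males, and Ces3a 13.23, 13.65 and 14.24 against 14.24, 14.59 and 14.99. Neither gene overlapped between the sexes, and the differences were -1.48 ± 0.12 and -0.92 ± 0.09. In the Ces1 run on chromosome 8, 3 of 6 genes were higher in females, Ces1g by 0.70 ± 0.14, Ces1c by 0.39 ± 0.08 and Ces1d by 0.31 ± 0.10, whereas Ces1f, named after its value was seen, was lower by -0.51 ± 0.12. The Ces1d call was lost when any of 11 single arrays was left out, and Ces1d did not pass in the water controls alone (0.37 ± 0.16, adjusted p = 0.194). Ces1b, which lies in the patch of low signal, did not pass at 0.32 ± 0.15 (adjusted p = 0.119) and passed without the patch at 0.45 ± 0.09 (adjusted p = 0.00144), and with Akr1c13 it brought the members that passed between the sexes to 14 higher and 23 lower. Ces2g, also named afterwards, was higher by 0.28 ± 0.06.

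Of 14 aldehyde dehydrogenases, 2 were higher and 3 lower (20.5% of all genes passed). Aldh3a2, the fatty aldehyde dehydrogenase, gave 8.36, 9.39 and 10.18 in females against 7.65, 8.41 and 9.09 in males, a difference of 0.93 ± 0.12. The sexes overlapped over all 30 arrays but in none of the 5 gavages taken singly, where the difference was 0.69 to 1.33. Aldh1b1, a mitochondrial enzyme, was higher by 0.50 ± 0.13. The retinaldehyde dehydrogenase Aldh1a1 was lower by -0.85 ± 0.14 and its neighbour Aldh1a7 by -0.73 ± 0.13. Aldh7a1, named after its value was seen, was lower by -0.45 ± 0.08.

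Aldo-keto reductases, which reduce carbonyl groups of steroids and aldehydes, had 3 of 11 lower in females and none higher (20.5% of all genes passed). The 3, Akr1c19 (-0.47 ± 0.13), Akr1c6 (-0.45 ± 0.13) and Akr1c20 (-0.35 ± 0.10), were named after their values were seen and lie in 1 run of 7 genes on chromosome 13. Akr1c13 was at -0.68 ± 0.25 and did not pass (adjusted p = 0.0549). It lies in the patch of low signal, at 7.98 on female G12 replicate 2 and 11.64 to 12.35 on the other 14 female arrays, and without the patch it passed at -0.42 ± 0.08 (adjusted p = 0.000718).

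Of the 14 quinone and thiol antioxidant genes, 2 passed (20.5% of all genes did). Nqo1, the quinone reductase that serves as a standard NRF2 target, gave 6.60, 6.82 and 7.35 in females against 5.99, 6.42 and 6.87 in males, a difference of 0.49 ± 0.08 on a probe among the dimmest 25% of genes. Gclc, the catalytic subunit of the enzyme that limits glutathione synthesis, was lower in females by -0.38 ± 0.10 and was named after its value was seen. The microsomal epoxide hydrolase Ephx1 was lower by -0.43 ± 0.13, also named afterwards. Fmo1, a flavin monooxygenase, was higher by 0.29 ± 0.10, and that call was lost when any of 12 single arrays was left out. Fmo5, named after its values were seen, was at -0.75 and did not pass, with 1 female array at 8.14. In limma's fit of every probe, its 2 dimmer probes were at -0.47 ± 0.12 (adjusted p = 0.00612) and -0.15 ± 0.08 (adjusted p = 0.18).

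Some other listed genes of the same pathways differed, where 20.5% of all genes did. Of 16 other conjugation genes, 2 were higher in females, Nnmt (2.12 ± 0.31) and Papss2, which makes the sulfate donor (0.56 ± 0.10), and 3 were lower, Nat8 (-3.55 ± 0.14), which acetylates cysteine conjugates, Glyat and Ugdh. Of 27 other antioxidant genes, 6 were higher and 1 lower (8.98% of all genes were higher and 11.5% lower). Of 7 transporters of conjugates, Slco1a4 was higher (1.16 ± 0.14) and Abcg2 lower (-0.90 ± 0.09). Among 14 regulators, the aryl hydrocarbon receptor Ahr was higher in females by 0.63 ± 0.13, and Nfe2l2 did not pass, at 0.09 ± 0.10. Of 7 Kupffer cell markers, 3 were higher in females (8.98% of all genes were). The list means were 8.23 to 9.19 in females and 8.07 to 8.81 in males. The part of these markers in the members' differences was not tested.

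Slide and sex were partly confounded. With slide in the model, where only 3 slides compare the sexes, 21 of the 94 members passed (14.4% of all genes), 10 higher and 11 lower. Of these, 20 had passed without slide, and Prdx2 (-1.13, adjusted p = 0.0492), which lies in the patch of low signal, had not; without the patch it was at -0.23 (adjusted p = 0.244). Sult1e1 (2.38), Gstp1 (-2.15), Sult2a8 (-1.28), Ces3b (-1.39), Ces3a (-0.97), Gstp2 (-1.12) and Aldh3a2 (0.73) were among them and pointed the same way on 3 of 3 slides. Aldh1a1 (adjusted p = 0.354), Ugt2b35 (adjusted p = 0.276), Gsta2 (adjusted p = 0.347), Aldh1b1 (adjusted p = 0.0706), Nqo1 (adjusted p = 0.0511) and Fmo1 (adjusted p = 0.277) then did not pass. Neither did Ugt2b36, Ugt2a3, Akr1c19, Akr1c6, Akr1c20, Ephx1 and Gclc (adjusted p from 0.2 to 0.865), which with Aldh1a7 and Gstm6 makes 15 of the 35 calls lost. Aldh1a7 changed sign to 0.14 (adjusted p = 0.496), and Gstm6 was at -0.06 (adjusted p = 0.811).

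The second question was whether the chicory decoctions or inulin changed these enzymes relative to water. No member passed in any of these comparisons in limma's fit without slide. Averaged over the sexes, 0 of 94 passed under G35 (0.0556% of all genes did), under G12 (0%) and under inulin (0%), with 3, 12 and 0 members, out of 708, 469 and 178 genes, at an unadjusted p under 0.05. The members' median difference was 0.01 under G35, -0.01 under G12 and 0.00 under inulin, and 50, 46 and 47 of them lay above 0. Within a sex, 0 members passed under G35 in females (0% of all genes) or males (0.0111%), under G12 in females (0.0778%) or males (0%), and under inulin in females (0%) or males (0%). The difference between the sexes did not pass for any member under G35 (0.0222% of all genes), G12 (0.0333%) or inulin (0%), and neither did G35 minus G12 (0%). At an unadjusted p under 0.05, limma's fit held 6 members of 724 genes under G35, 12 of 993 under G12 and 2 of 327 under inulin in females. In males these were 3 of 528, 3 of 354 and 0 of 186. For the difference between the sexes they were 4 of 555, 4 of 835 and 1 of 302, and for G35 minus G12 2 of 408. Without the patch of low signal the 12 under G12 in females became 6 of 781 genes, the 4 for the difference between the sexes 3 of 788, and the 12 averaged over the sexes 8 of 392.

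**Figure D3:**
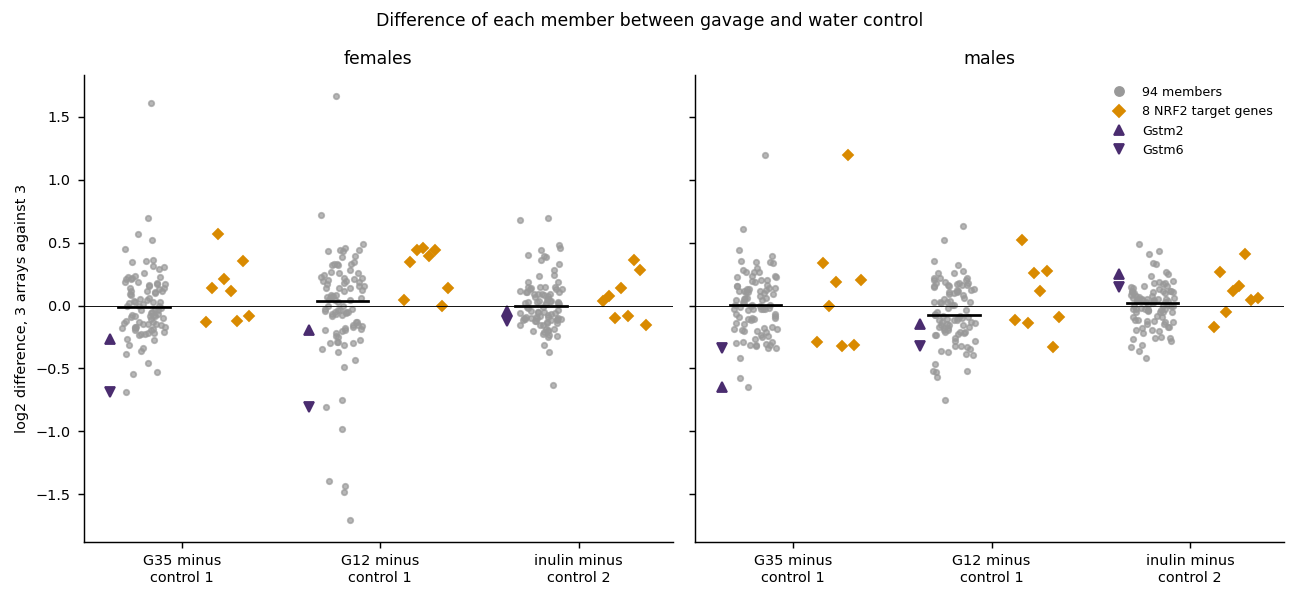
Log2 difference of each member (y axis) between 3 gavaged mice and 3 water controls for the 3 gavages (x axis), in females (left) and males (right). Grey points are the 94 members with their median as a bar, orange diamonds the 8 NRF2 target genes and triangles Gstm2 and Gstm6; medians lie near 0, and the lowest points under G12 in females are members inside the patch of low signal.

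The 8 NRF2 targets were followed as a group, since plant electrophiles are known to induce them. Under G35 6 of the 8 lay above the controls, with a median of 0.13, under G12 6 of 8 with a median of 0.20, and under inulin 5 of 8 with a median of 0.08; none passed. The 2 chicory comparisons share their control arrays. Thioredoxin reductase Txnrd1 had 10.39, 10.24 and 10.72 in G35 females and 10.64, 10.48 and 10.37 in G35 males. It had 10.40, 10.61 and 11.07 in G12 females and 10.68, 10.66 and 10.35 in G12 males. Control 1 gave 10.30, 10.41 and 10.01 in females and 10.35, 10.43 and 10.14 in males. The groups overlapped, with differences of 0.20 ± 0.13 under G35 and 0.36 ± 0.13 under G12 (adjusted p = 0.756 and 0.886).

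Gclc was at 0.24 ± 0.17 under G35, 0.43 ± 0.17 under G12 and 0.17 ± 0.17 under inulin, and Gclm, its modifier subunit, at 0.29 ± 0.17, 0.15 ± 0.17 and -0.07 ± 0.17. Sulfiredoxin Srxn1 was at -0.10 ± 0.15 under G35, 0.25 ± 0.15 under G12 and 0.04 ± 0.15 under inulin, and Nqo1 at -0.21 ± 0.12, -0.03 ± 0.12 and -0.07 ± 0.12. Gsta4, which conjugates lipid aldehydes to glutathione, and the peroxiredoxin Prdx1 stayed within -0.17 and 0.16 in all 3 comparisons averaged over the sexes. Under G35 the Gsta4 average joined opposite values, 0.35 in females and -0.31 in males. All 10 probes of Gsta4 lay above 0 in females and below 0 in males. None of these values passed.

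Hmox1 encodes haem oxygenase, which breaks down haem. It gave 9.08, 8.77 and 10.32 in G35 males against 8.82, 8.23 and 7.53 in control 1 males, and 8.44, 6.25 and 8.82 in G35 females against 7.87, 7.45 and 8.53 in control 1 females. In males the groups overlapped at one value, and in females the spread of G35 covered all controls. The difference was 1.199 ± 0.467 in males (adjusted p = 0.653) and 0.54 ± 0.33 over both sexes (adjusted p = 0.74), and without male G35 replicate 3 the male value was 0.73.

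Of the 8 targets, 5 had a promoter window (Gclc, Hmox1 and Gsta4 had none), and 4 of the 5, all but Nqo1, held the antioxidant response element core TGACNNNGC, and these are shown because they carry the letters through which NRF2 is known to act. They are from GRCm38.p6, plus strand, 5′ to 3′: Srxn1 at chr2:152105274-152105573, Gclm at chr3:122245307-122245606, Prdx1 at chr4:116685349-116685648 and 1 of 3 windows of Txnrd1 at chr10:82858956-82859255. Capitals mark the core, which in all 4 reads on the opposite strand, and in Txnrd1 also a match to TTCNNNGAA nearer the 5′ end.
Srxn1: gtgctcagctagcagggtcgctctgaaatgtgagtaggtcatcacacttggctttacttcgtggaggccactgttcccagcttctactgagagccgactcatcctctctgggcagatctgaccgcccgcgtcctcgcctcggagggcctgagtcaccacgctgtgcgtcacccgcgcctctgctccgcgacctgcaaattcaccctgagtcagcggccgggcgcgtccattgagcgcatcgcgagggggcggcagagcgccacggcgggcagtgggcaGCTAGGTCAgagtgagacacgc
Gclm: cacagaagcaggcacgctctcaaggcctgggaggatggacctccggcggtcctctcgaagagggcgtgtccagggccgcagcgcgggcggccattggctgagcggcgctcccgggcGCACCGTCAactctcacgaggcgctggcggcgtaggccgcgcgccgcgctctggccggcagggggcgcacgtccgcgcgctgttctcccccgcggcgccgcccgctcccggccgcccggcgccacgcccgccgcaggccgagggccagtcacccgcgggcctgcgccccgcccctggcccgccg
Prdx1: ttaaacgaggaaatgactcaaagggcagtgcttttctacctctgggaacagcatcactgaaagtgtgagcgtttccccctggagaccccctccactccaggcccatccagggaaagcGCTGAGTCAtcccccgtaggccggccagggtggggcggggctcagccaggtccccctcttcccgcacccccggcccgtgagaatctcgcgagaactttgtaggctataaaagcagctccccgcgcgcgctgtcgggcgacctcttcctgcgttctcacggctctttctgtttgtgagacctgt
Txnrd1: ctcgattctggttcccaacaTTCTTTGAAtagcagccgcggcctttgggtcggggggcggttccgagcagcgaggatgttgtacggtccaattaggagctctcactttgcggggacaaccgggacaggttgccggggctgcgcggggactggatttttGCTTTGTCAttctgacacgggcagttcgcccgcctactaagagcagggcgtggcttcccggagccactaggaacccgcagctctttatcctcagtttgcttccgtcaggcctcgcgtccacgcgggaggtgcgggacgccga

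Over the 77 of 94 members with a promoter window in RefSeq, 9 (11.7%) held the core on either strand, against 14% of the 27025 genes with a window. The STAT5-type motif TTCNNNGAA, which reads the same on both strands and was counted apart from the core, was in 5 members (6.49%), against 9.55% of all genes. It was in 0 of the 10 windowed members that were higher in females and in 2 of the 17 that were lower, Gstm6 and Akr1c19. These shares describe letters in 300 bases and say nothing of sites outside them. The window of Gstm6 that holds it, at chr3:107943349-107943648 on the minus strand, is shown because Gstm6 is a main item of the chicory comparison, with the motif in capitals.
Gstm6: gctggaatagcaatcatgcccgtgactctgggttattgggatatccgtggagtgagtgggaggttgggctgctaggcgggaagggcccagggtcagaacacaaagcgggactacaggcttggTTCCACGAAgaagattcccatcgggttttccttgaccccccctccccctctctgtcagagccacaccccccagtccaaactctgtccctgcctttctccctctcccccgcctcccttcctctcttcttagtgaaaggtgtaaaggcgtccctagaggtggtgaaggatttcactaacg

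Gstm2 and Gstm6 are mu class transferases from the run on chromosome 3. In males, Gstm2 gave 9.67, 10.31 and 10.32 under G35 against 10.25, 10.84 and 11.16 in control 1, with a difference of -0.65 ± 0.27 (adjusted p = 0.77). One control array lay within the G35 values. Once slide was fitted, it passed at -0.65 (adjusted p = 0.0472; 1 of 94 members, 0.356% of all genes), and it was lower on 3 of 3 slides, by -0.84 to -0.53. The adjusted p was 0.211 when slide was a random effect and 0.505 when the replicate number was blocked. In males, position on the slide and gavage cannot be told apart, because all control arrays had block position 4 and no gavaged male did.

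In females, Gstm6 gave 9.52, 9.66 and 9.88 under G35 and 9.63, 9.38 and 9.70 under G12, against 10.15, 10.28 and 10.69 in control 1. Every chicory female lay below every control 1 female, and both comparisons share these controls. The control 2 females, from the other experiment, gave 10.77, 9.27 and 9.37, the lower of which lay below all chicory females. Replicate 3 of the G35 and of the G12 females lay on slide 2, which held no control array. The difference was -0.69 ± 0.31 under G35 and -0.81 ± 0.31 under G12 (adjusted p = 0.564 and 0.323). Once slide was fitted, it passed under G12 (-0.77, adjusted p = 0.0248, and 0.0433 with the patch left out) and not under G35 (adjusted p = 0.0923). Averaged over the sexes under G35, Gstm2 was at -0.46 ± 0.19 and Gstm6 at -0.51 ± 0.22, lower on 4 of 4 sets of the same sex and slide, and neither passed with slide (adjusted p = 0.067 and 0.0689).

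**Figure D4:**
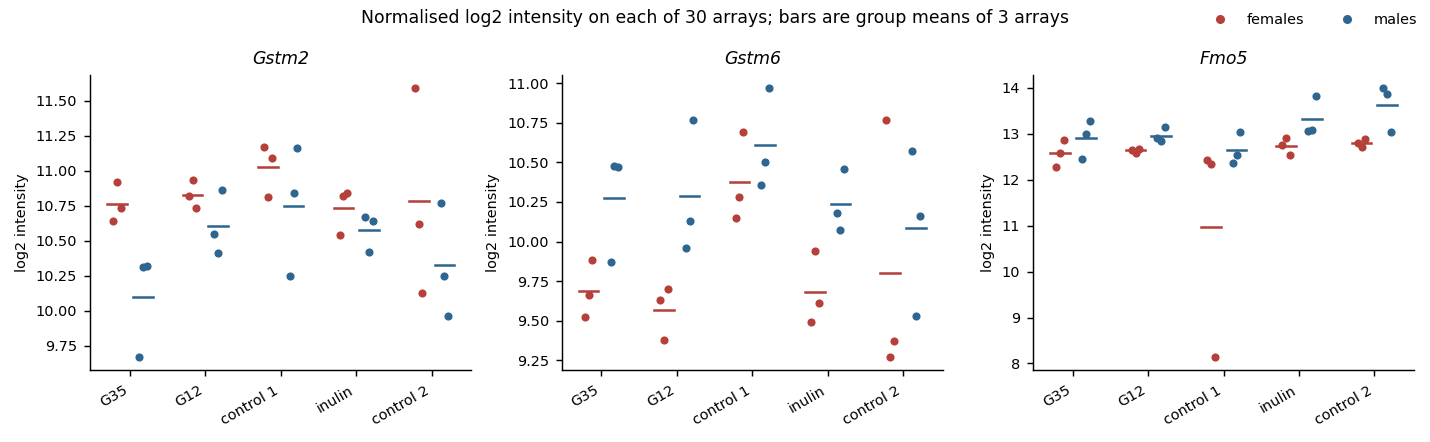
Normalised log2 intensity (y axis) of Gstm2, Gstm6 and Fmo5 on each of the 30 arrays, by gavage (x axis), females in red left of males in blue, with bars at the means of 3 arrays. Gstm6 lies lower in the 6 chicory females than in the 3 control 1 females, and Fmo5 has 1 array at 8.14 in control 1 females.

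Of the other calls with slide in the model, all lay in the patch of low signal. Under G12 in females 6 members passed (4.55% of all genes): besides Gstm6 they were Aldh16a1 (-1.94), Prdx2 (-2.06), Ces2e (-1.07), Gstt1 (-2.11) and Akr1c13 (-1.99). Gstt1 gave 12.91, 9.27 and 12.92 in G12 females against 12.98, 13.35 and 13.90 in control 1 females, so 1 array carried the difference. With the patch left out, only Gstm6 of the 94 passed (0.978% of all genes), and the other 5 had adjusted p from 0.13 to 0.841. With slide in the model 0 members passed under G35 (0.456% of all genes), G12 (0.0333%) or inulin (0.0445%) averaged over the sexes, under G35 in females (0.867%), G12 in males (0%), inulin in either sex (0% and 0%), in G35 minus G12 (0.1%), or in the difference between the sexes under G35 (0%), G12 (0.7%) and inulin (0%).

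Fmo5, a flavin monooxygenase, gave 12.28, 12.59 and 12.87 in G35 females and 12.65, 12.59 and 12.68 in G12 females, against 12.43, 12.35 and 8.14 in control 1 females. The difference under G35 in females was 1.61 ± 0.63 (adjusted p = 0.494), and 0.19 without control 1 replicate 3, whose low value appeared on this probe and not on the other 2 Fmo5 probes. Under inulin the 4 members with the lowest p over both sexes were Prdx3 (-0.25 ± 0.16), Sult1a1 (-0.20 ± 0.13), Gsta3 (0.17 ± 0.11) and Nqo2 (0.23 ± 0.17), each with an adjusted p of 1. Under G12 those next to Txnrd1 and Gclc were Aldh3a2 (0.54 ± 0.19) and Gstm5 (-0.32 ± 0.12), each with an adjusted p of 0.886.

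Markers of another tissue varied between arrays, and a regulator passed with slide in the model. For the 2 pancreatic acinar markers measured, of 6 listed, list means were 7.66 to 13.78 on the G35 arrays (median 7.95). They were 7.75 to 14.62 on the G12 arrays (median 11.80) and 7.76 to 11.30 on those of control 1 (median 7.99). The G35 median thus lay beside that of control 1, with high values on some arrays. The part of these markers in the G35 and G12 values was not tested. The xenobiotic receptor PXR (Nr1i2) passed under G35 with slide in the model (adjusted p = 0.0298, against 0.286 without slide), and no other of the 14 regulators passed under G35, G12 or inulin averaged over the sexes in either fit.

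As over all genes, more members differed between the water controls of the 2 experiments than between any gavage and its control. Control 2 exceeded control 1 in 12 members and fell below it in 5 (17 of 94; 22.9% of all genes differed, 13.6% higher and 9.25% lower). Aldh6a1, which acts in valine breakdown, gave 13.11, 12.57 and 12.59 in control 2 females and 13.25, 12.76 and 12.68 in control 2 males, against 11.18 to 12.28 in control 1 females and 11.97 to 12.04 in control 1 males. No array overlapped, a difference of 0.91 ± 0.17 (adjusted p = 0.000622). Aldh3a1 gave 6.10, 6.37 and 6.00 and 6.36, 6.20 and 6.13 in control 2, against 8.13, 8.03 and 6.48 and 7.42, 7.98 and 6.76 in control 1, again without overlap (-1.27 ± 0.33), and its control 2 values lay among those of the dimmest 25% of genes. All 6 arrays of replicate 3 in the chicory experiment read 6.21 to 6.76 for Aldh3a1, while the other 12 read 7.20 to 8.13, and slide accounted for 94.8% of its variance.

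**Figure D5:**
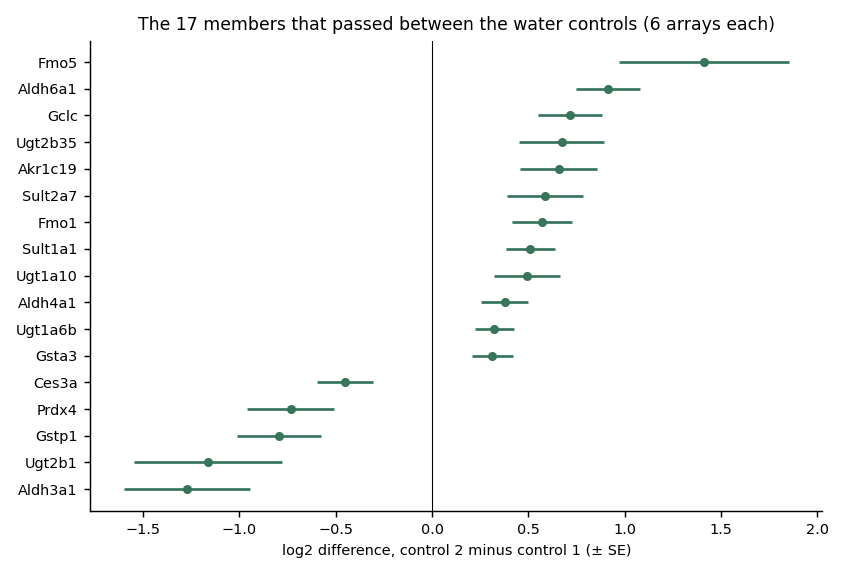
Log2 difference between control 2 and control 1 (x axis, 6 arrays each, bars ± SE of the fit) for the 17 members that passed. Fmo5 at 1.41 and Aldh3a1 at -1.27 stand at the ends.

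Other members that passed between the water controls included Gclc (0.72 ± 0.17), Akr1c19 (0.66 ± 0.20), Fmo1 (0.57 ± 0.15), Sult1a1 (0.51 ± 0.13), Aldh4a1 (0.38 ± 0.12) and Ugt1a6b (0.32 ± 0.10), all higher in control 2. Lower ones were Ugt2b1 (-1.16 ± 0.38), Gstp1 (-0.79 ± 0.22), Prdx4 (-0.73 ± 0.23) and Ces3a (-0.45 ± 0.14). Fmo5 (1.41 ± 0.44) came to 0.70 without female control 1 replicate 3. With slide as a random effect 7 of the 94 passed, and Fmo5, Akr1c19, Aldh4a1, Ugt1a6b, Ugt2b1, Gstp1 and Prdx4 were not among them (adjusted p from 0.0529 to 0.095). The share of all genes that passed in that fit is not given here. The calls of Aldh4a1 and Ugt2b1 were lost when any of 6 single arrays was left out, those of Prdx4 and Ces3a with any of 5, those of Akr1c19 and Fmo5 with any of 4, and that of Ugt1a6b with any of 3. Leaving out male control 1 replicate 2, female control 1 replicate 2 or male control 2 replicate 2 left 11 members each. Of 14 regulators, the constitutive androstane receptor Nr1i3 (1.45 ± 0.17) and Nfe2l2 (0.55 ± 0.16) were higher in control 2 and Arnt lower (-0.57 ± 0.13). Of the cell type markers, 4 of 5 erythroid ones were lower, with list means of 11.77 to 12.44 in control 2 and 12.66 to 13.24 in control 1, as were Alb of 5 hepatocyte markers (-0.47 ± 0.12), Pdgfrb of 3 stellate markers (-0.30 ± 0.11) and the lymphocyte marker Cd3e (-1.02 ± 0.37). The other hepatocyte markers did not pass. Among them Apoa1 (0.58 ± 0.22), Cps1 (0.58 ± 0.32) and Tat (0.40 ± 0.18) lay higher in control 2, and Cyp2e1 (-0.46 ± 0.27) lay lower. Hal and Pck1 of 4 periportal markers, Dcn of the stellate markers and Clec4g of 4 endothelial markers were higher. Their part in the members' differences was not tested. The 2 experiments were run at different times on different slides, so slide and experiment cannot be told apart.

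The members' median standard deviation between mice of 1 group was 0.33, against 0.23 over all genes, with a range of 0.16 to 0.83. Members were not matched to other genes for intensity, and the patch of low signal was not left out here. Sex accounted for a median of 9.86% of a member's variance, against 5.43% over all genes, and gavage, beyond sex and experiment, for 9.71%, against 13%. Slide accounted for 62% and 59.4%. These shares were not adjusted for the number of levels of sex, gavage and slide, and that of slide overlaps with sex and experiment. They set members beside all genes and do not rank sex, gavage and slide against each other. The widest within-group spread was that of Fmo5 and Gstt1, each set by 1 array.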

How the data were processed

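The deposited table held one-colour Agilent intensities of 15505 probes on 30 arrays, which per the submitters' processing notes came from Agilent Feature Extraction, run by the authors. Its version, signal column and background subtraction were not given in the sources used here. Values were whole numbers from 39 to 65535, not normalized. The intensities were corrected by normexp with an offset of 50, quantile-normalized and converted to log2 with limma 3.58.1 in R 4.3.3. Probes with 1 symbol (12544) were kept, and 2961 without one were left out.

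All comparisons came from 1 limma fit of 10 groups with 20 residual degrees of freedom, with p-values adjusted by Benjamini-Hochberg over 8996 genes. Alternatives were slide as a fixed or random block, replicate number as a block, other normalizations, filters on dim probes, every probe, fewer arrays and leaving out each array. Leaving out the patch of low signal, alone or with slide, and the comparison of the sex difference between experiments were added after the data were seen. The scripts were tested on simulated data.

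Named were the 12 largest called sex differences each way and, elsewhere, up to 8 called members each way, filled to 4 by lowest p, plus the 8 NRF2 targets. The members and lists were chosen with earlier results of these data known. Deviations from group means correlated between same-numbered arrays of the chicory experiment at 0.121 to 0.706 (median 0.358). Between other-numbered ones the range was -0.526 to 0.39 (median -0.233). In the inulin experiment these were -0.525 to 0.404 (median -0.0367) and -0.305 to 0.557 (median 0.0349). Chicory arrays of replicate 3 all lay on slides 1 and 2, so a pairing by number and a shared slide cannot be told apart. Each array was labelled as a separate mouse. Promoter windows came from RefSeq for 77 of the 94 members.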

Additional observations from a re-analysis of the deposited data

How the results depend on the processing

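The count of members that differed between the sexes was 35, and it was 32 to 39 when 1 array was left out, 43 with the replicate number as a block, 21 with slide as a fixed block, 22 with slide and without the patch of low signal, and 14 in the water controls alone. Blocking the replicate number kept all 35 sex calls and added 8, and left every gavage count at 0. No paired analysis was possible for the water controls because replicate numbers, like slides, lie within an experiment. Their count of 17 was 7 with slide as a random block, 8 with only the arrays compared, and 11 to 21 without 1 array, the highest without female control 1 replicate 3. Slide as a fixed block gave 1 call for G35 in males, with or without the patch, and for G12 in females 6 calls, 1 without the patch and 1 as a random block. Most of these alternative counts are given without the share of all genes. They show how the calls moved and not how the members compared with other genes.

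With slide fixed, with or without the patch, signs turned for Aldh1a7 between the sexes (0.14), Gsta4 under G35 (-0.0066), Nqo1 under G12 (0.0068) and Srxn1 under inulin (-0.028), and without the patch for Akr1c13 under G12 in females (0.090). Scaling to the 75th percentile turned Prdx1 under G12 (-0.033), Nqo1 (0.22) and Gclm (0.014) under inulin, and Ugt1a6b between the water controls (-0.080). Keeping every probe turned Prdx1 under G35 (-0.078), G12 (-0.11) and inulin (0.096). Without 1 array, Gsta4 under G35 ran from -0.043 to 0.076, Prdx1 from -0.11 to 0.16 under G35, -0.15 to 0.14 under G12 and -0.13 to 0.041 under inulin, Nqo1 under G12 from -0.11 to 0.054, and Srxn1 under inulin from -0.043 to 0.13. The causes were not tested. Of 1242 alternative values of the 37 named calls, 1124 stayed called in the same direction, 115 no longer passed and 3 changed sign. With 3 arrays a group, small differences were not detectable, and 6 members were among the dimmest 25% of genes.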
